A study of Mus musculus with 12 samples.

Results

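NPC clone 129 is a clonal line of neural progenitor cells (NPC), and its polyadenylated RNA was compared here with that of its 3 sister clones C2, G4 and E1.2. All 4 clones were grown from the female (XX) embryonic stem (ES) cell line F1-21.6, a hybrid of the mouse strains 129Sv and Cast/EiJ. The members described are autosomal genes chosen by their values in clone 129 against the 3 sisters, among 14415 autosomal genes of 14899 genes in all. They are 212 genes monoallelic in clone 129 and biallelic in every sister, 80 genes silent in clone 129 alone, 177 genes far below every sister and 36 genes far above every sister. The 80 silent genes were all among the 177, and 17 of the 177 were also in the monoallelic class. A further 4 genes were monoallelic in every sister and biallelic in clone 129, and 5 were expressed in clone 129 alone. The number in the name of clone 129 is only a label. The alleles are called 129Sv and Cast throughout.

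Besides clone 129 and its sisters, the data hold 4 XY NPC clones (mC3, mE6, mB4 and mG3) from the male hybrid ES line F1-23, and the ES lines F1-21.6 and F1-23 themselves. All these lines carry the 129Sv and Cast/EiJ genomes, the ES lines were kept on feeder cells with leukaemia inhibitory factor, and no agent or further allele sets a group apart. The values used here come from 1 library of each clone or line, so a value of clone 129 has no replicate error of its own. C2 and mC3 also have a repeat library each, which was not analysed here. Nothing in the labels says whether clones came from separate cultures, and p-values measure only the spread between these libraries, with clone 129 assumed to vary as the other NPC clones do.

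In a hybrid cell, a read that covers a base differing between the strains can be assigned to its allele. Most autosomal genes are read from both alleles, but at some genes a cell settles on a single allele and hands that choice to its daughters, so clones of the same cell type differ in the allele they use. This is called random monoallelic expression. Imprinted genes differ from it in that the parent of origin sets the allele in use. Adhesion molecules, surface receptors and immune genes are among the genes known for clonal allele choice.

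Clone 129 was the shallowest of the XX NPC libraries. Its total of counts informative for an allele was 66611144, against 100631463 (C2), 102153897 (G4) and 119266777 (E1.2) for the sisters, with a median autosomal gene at 1126 counts, against 1682 to 1975 in the sisters. Of autosomal genes with at least 20 counts, 8.37% had a major allele of at least 85% in clone 129, against 6.69% to 6.99% in the sisters. Neural progenitor markers were present in clone 129, with Nes, an intermediate filament of progenitors, at 281 FPKM and Olig2, a progenitor transcription factor, at 355 FPKM (fragments adjusted for transcript length and library size). Of 10 neural progenitor markers 9 were in the table, and their FPKM summed to 3226 in clone 129, against 3590 to 4370 in the sisters. Pluripotency markers in the table (3 of 8) summed to 1.303 FPKM in clone 129, against 0.638 to 0.918 in the sisters and 519 in the XX ES line. Astrocyte markers (5 of 6) summed to 53.9 FPKM in clone 129 and to 35.9 to 236 FPKM in the sisters, and neuron markers (4 of 6) to 9.54 FPKM in clone 129 and 9.61 to 19.8 FPKM in the sisters. Oligodendrocyte markers (3 of 6) summed to 19.95 FPKM in clone 129 and to 21.6 to 35.8 FPKM in the sisters. Among the astrocyte markers Gfap was at 0.0693 FPKM in clone 129, against 0.253 to 5.32 FPKM in the sisters, while S100b was at 22.15 FPKM, against 6.16, 16.7 and 82.9 FPKM in C2, G4 and E1.2, and Gja1 at 29.2 FPKM, against 25.9, 58.2 and 69.8 FPKM. Among the oligodendrocyte markers Mbp was under 0.1 FPKM in all 4 XX clones, and Cnp was at 18.4 FPKM in clone 129, against 19.7 to 33.6 FPKM in the sisters.

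To see whether clone 129 differed from its sisters more than they differ among themselves, each XX clone in turn was set against the other 3 by the same rules. Clone 129 had more genes monoallelic, silent or far lower in it alone than any sister had. It did not have the most genes far above the others. A gene counted as monoallelic in a clone where it had at least 20 counts in all 4 clones, a major allele of at least 85% in that clone and of at most 70% in the other 3. By this rule 212 of 11618 genes (1.82%) were monoallelic in clone 129, while C2 had 27 (0.232%), G4 had 61 (0.525%) and E1.2 had 29 (0.25%). Of the 212, 93 were read from 129Sv and 119 from Cast. With at least 500 counts in all 4 clones the numbers were 105 of 8542 genes in clone 129, while C2 had 9, G4 had 35 and E1.2 had 13. The reverse class held 4 genes (0.0344%) in clone 129, while C2 had 17 (0.146%), and G4 and E1.2 had 16 each (0.138%). Without 1 of the sisters the reverse class of clone 129 held 27 (without C2), 20 (without G4) or 18 genes (without E1.2).

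A gene counted as silent with under 0.1 FPKM in a clone and at least 1 FPKM in each of the other 3. Clone 129 had 80 such genes among 9798 (0.816%), while C2 had 3 (0.0313%), G4 had 4 (0.0415%) and E1.2 had 3 (0.0312%). Of these, 36 had 0 counts in clone 129, against 1, 0 and 0 of the silent genes of C2, G4 and E1.2. Genes at least 4-fold below all others numbered 177 in clone 129 (1.81%), while C2 had 11 (0.115%), G4 had 24 (0.249%) and E1.2 had 18 (0.187%). Genes at least 4-fold above all others numbered 36 in clone 129 (0.358%), while C2 had 41 (0.398%), G4 had 26 (0.254%) and E1.2 had 92 (0.882%). Genes at 1 FPKM or more in a single clone and under 0.1 FPKM in the other 3 numbered 5 in clone 129 (0.0497%), while C2 had 10 (0.097%), G4 had 2 (0.0196%) and E1.2 had 12 (0.115%). Without G4 the silent class of clone 129 held 126 genes, and its far above class held 56 without C2 and 61 without E1.2. These classes were chosen by the values compared, so their counts are descriptions without a test, and a comparison of 1 clone with 3 could not give an exact permutation p under 0.25.

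**Figure D1:**
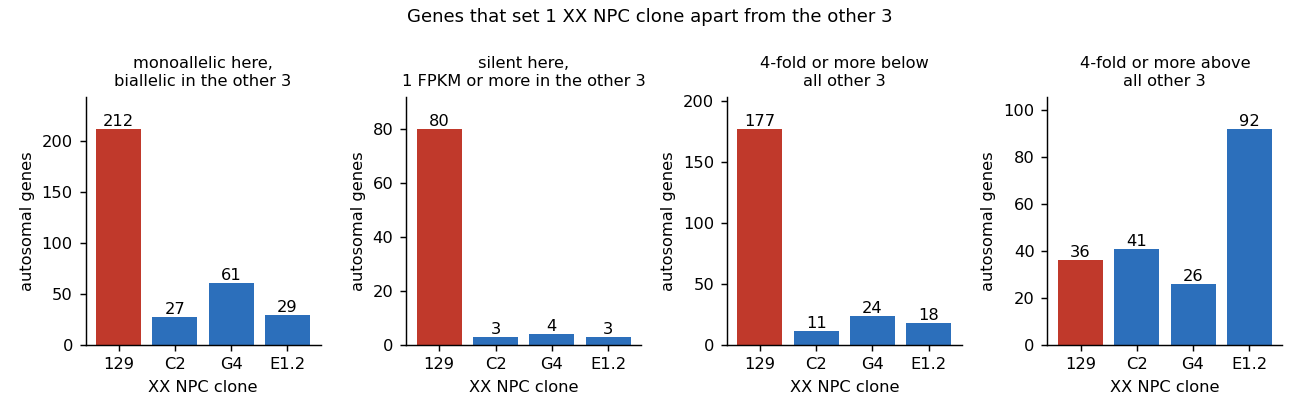
Number of autosomal genes (y axis) that set each XX NPC clone (x axis, clone 129 in red, sisters in blue) apart from the other 3, in 4 classes. Clone 129 had 212 monoallelic, 80 silent and 177 far lower genes, more than any sister, while its 36 far higher genes lay between the 26 of G4 and the 92 of E1.2.

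The limits set how many genes the monoallelic class held. Of 9555 genes with 20 counts in all 4 clones that were biallelic in every sister, 9031 were biallelic in clone 129 too, 50 had a major allele of 80% to 85% there, 36 of 85% to 90%, and 144 of at least 95%. With a limit of 60% in place of 70% for the sisters, the class held 87 genes in place of 212.

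The named genes of the monoallelic class used either allele in clone 129. Ldha, the lactate dehydrogenase subunit that turns pyruvate into lactate, and Ncan, which encodes the brain matrix proteoglycan neurocan, used opposite alleles. The windows at their starts are shown because they are a CpG-rich and a CpG-poor member of the same class, with CpG pairs in capitals and both read 5′ to 3′ on the gene's strand from build NCBIM37 (mm9). The Ldha window is chr7:54100924-54101223, plus strand, and holds 30 CpG pairs. The Ncan window is chr8:72644694-72644993, minus strand, and holds 9. Each runs from 250 bases before the gene's start to 50 bases after it.
Ldha: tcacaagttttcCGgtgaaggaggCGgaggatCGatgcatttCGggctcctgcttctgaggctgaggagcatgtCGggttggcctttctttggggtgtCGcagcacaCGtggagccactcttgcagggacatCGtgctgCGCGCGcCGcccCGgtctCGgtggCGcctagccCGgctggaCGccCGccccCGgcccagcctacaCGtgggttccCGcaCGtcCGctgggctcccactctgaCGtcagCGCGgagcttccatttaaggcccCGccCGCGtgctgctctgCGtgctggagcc
Ncan: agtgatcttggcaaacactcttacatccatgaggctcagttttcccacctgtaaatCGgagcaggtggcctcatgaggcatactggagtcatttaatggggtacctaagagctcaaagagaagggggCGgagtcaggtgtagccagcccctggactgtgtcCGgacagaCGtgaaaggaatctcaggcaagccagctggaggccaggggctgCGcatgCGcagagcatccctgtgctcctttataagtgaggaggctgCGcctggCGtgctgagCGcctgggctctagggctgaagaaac

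Ldha (chromosome 7, 54101174 to 54110997) had a 129Sv share of 0.027% in clone 129 (exact 95% interval 0.00876 to 0.063, of 18528 counts), against 46.8%, 46.6% and 44.8% in C2, G4 and E1.2. Its level was 199 FPKM in clone 129, against 299, 259.9 and 276 FPKM in the sisters. Among the XY clones mC3 also used Cast (129Sv share 1.80%, 135 FPKM), while mE6, mB4 and mG3 had shares of 44.7% to 50.2%. Ldha therefore had a single allele in use in 2 of the 8 NPC clones, and its level was lowest in these. Cyb5b, a cytochrome b5 of the outer mitochondrial membrane, had a share of 0.0188% in clone 129, against 48.8%, 47.9% and 49.5% in C2, G4 and E1.2. Its level was 28.9 FPKM in clone 129, against 54.3, 49.4 and 51.04 FPKM in the sisters. It was also read from Cast in mG3 (0.0779%, 32.0 FPKM), and mC3 had 18.5%.

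Poli, a DNA polymerase for damaged templates, had a 129Sv share of 0.0182% in clone 129 and of 37.6%, 45.0% and 44.7% in C2, G4 and E1.2. Its level, 4.61 FPKM in clone 129 against 6.49, 5.85 and 5.62 FPKM in the sisters, differed less than that of Cyb5b. Pxmp3, a peroxisome assembly factor, had a share of 0.0236% in clone 129, against 55.2%, 53.6% and 56.0%, and 11.0 FPKM, against 20.5, 24.4 and 28.0 FPKM. Smug1, a uracil-DNA glycosylase, had 1.049% in clone 129, against 53.5%, 49.4% and 65.3%. In mE6 the other allele of Smug1 was in use, at 99.9%. Pif1, a DNA helicase, had 3.71% in clone 129, against 52.9%, 52.0% and 53.6%, and here the level was not lower, with 11.1 FPKM in clone 129 against 10.8, 9.80 and 7.73 FPKM. Chfr, a ubiquitin ligase of a mitotic checkpoint, had 1.13% in clone 129, against 51.6%, 48.5% and 48.0%, and mC3 had 3.68%.

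Matrix, receptor and adhesion genes of the class used either allele. The 129Sv share of Ncan was 99.98% in clone 129, against 49.1%, 43.2% and 52.2% in C2, G4 and E1.2, with 24.7 FPKM in clone 129, against 32.1, 52.8 and 66.1 FPKM. All 4 XY clones read Ncan from both alleles (47.3% to 52.6%). Tgfbr2, a receptor of TGF-beta, had 98.9% in clone 129, against 60.1%, 61.2% and 60.6%, at 22.2 FPKM in clone 129, against 31.8, 18.6 and 17.4 FPKM, so its level lay within that of the sisters. Ror2, a receptor of Wnt ligands, had 0.152% in clone 129, against 39.5%, 41.7% and 41.9%, and 5.90 FPKM, against 12.8, 10.2 and 13.7 FPKM. Sema3c, a secreted guidance cue, had 2.73% of only 110 counts in clone 129, against 42.0%, 38.1% and 42.6%, and it was also in the far lower class with 0.984 FPKM, against 6.21, 5.22 and 5.52 FPKM. Fat4, a giant cadherin of planar polarity, lay close to the limit with 87.6% in clone 129, against 60.6%, 59.4% and 63.1%, and had 0.805 FPKM, against 3.14, 5.38 and 6.78 FPKM. Pcdhb5, a clustered protocadherin, had 7.75% in clone 129, against 35.7%, 40.2% and 39.4%.

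Other list members in the class were regulators and an immune gene. En1, a homeobox gene of midbrain and hindbrain, had a 129Sv share of 9.74% in clone 129, against 51.8%, 62.8% and 49.9%, and 2.57 FPKM, against 9.44, 6.67 and 7.76 FPKM. Cdkn2b, an inhibitor of cyclin-dependent kinases, had 6.13% in clone 129, against 43.9%, 45.1% and 40.5%, and 13.2 FPKM, against 40.3, 24.8 and 28.8 FPKM. Tap1, a peptide transporter for antigen presentation, had 13.2% in clone 129, against 49.3%, 58.1% and 48.1%, and 4.69 FPKM, against 9.31, 9.18 and 10.7 FPKM. In these 3 genes clone 129 was below every sister. Dab2, an endocytic adaptor, had 6.22% in clone 129, against 47.8% to 50.6% in the sisters. Esrrb, a nuclear receptor of pluripotent cells, had 86.8% in clone 129, against 49.01%, 62.9% and 56.6%, at under 1 FPKM in all 4 clones, and Fzd6, a Wnt receptor, had 86.3% of 73 counts in clone 129, against 34.9%, 61.2% and 47.8%.

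Genes read from 129Sv in clone 129 included a ribosomal protein gene. Rps20, a protein of the small ribosomal subunit, had 99.6% of 9793 counts from 129Sv in clone 129, against 54.3%, 51.8% and 52.4% in C2, G4 and E1.2, and 53.2% to 55.0% in the XY clones. Its level was 907 FPKM in clone 129, against 1392, 1139 and 766 FPKM. Rps20 has near-identical copies in the genome, so its share is uncertain where the counting could split reads among them. Tmem44, a membrane protein, had 97.6% in clone 129, against 52.6%, 54.3% and 54.7%. Ctso, a lysosomal protease, had 99.7% in clone 129, against 43.3%, 42.2% and 40.3%, and 2.74 FPKM, against 9.28, 14.2 and 21.1 FPKM.

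Among genes read from Cast, Ptrf, a coat protein of caveolae, had a 129Sv share of 10.5% in clone 129, against 44.8%, 51.1% and 52.0%. Clip3, a linker protein of microtubules and membranes, had 1.24% in clone 129, against 44.5%, 48.9% and 37.5%. Rftn2, a lipid raft protein, had 0.681% in clone 129, against 41.0%, 39.4% and 37.0%, and 7.46% in mG3. Als2cl lay nearer the limit, with 12.5% in clone 129, against 36.5%, 48.3% and 38.9%. The transcript 3632451O06Rik had 1.73% in clone 129, against 33.3%, 35.0% and 38.8%.

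No gene list had more than 2 members in the class. Of the 35 Wnt signalling genes with 20 counts in all 4 clones, Ror2 and Fzd6 were in it, and of 38 imprinted genes 2 were, beside 1.82% of all such genes. The imprinted genes counted by the list were Airn and Peg12, both known to be read from the paternal allele. The joined entries Snrpn;Snurf and D7Ertd715e;Snord64 were also in the monoallelic class but were not counted in any list, so the number of imprinted genes may be too low. Airn, the long noncoding RNA of the Igf2r locus, had a 129Sv share of 98.8% in clone 129, against 35.4%, 30.4% and 61.8% in C2, G4 and E1.2. In the XY clones mC3, mE6 and mB4 its share was 0.251%, 0.728% and 0.0462%, the opposite allele to clone 129, and mG3 had 40.6% of only 64 counts. Peg12 had 0.276% in clone 129, against 47.4%, 46.1% and 47.4%, and in the XY clones 45.9%, 0.0785%, 44.0% and 3.63% in mC3, mE6, mB4 and mG3. In clone 129 Airn and Peg12 thus used opposite alleles, while every sister read each of them from both alleles.

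**Figure D2:**
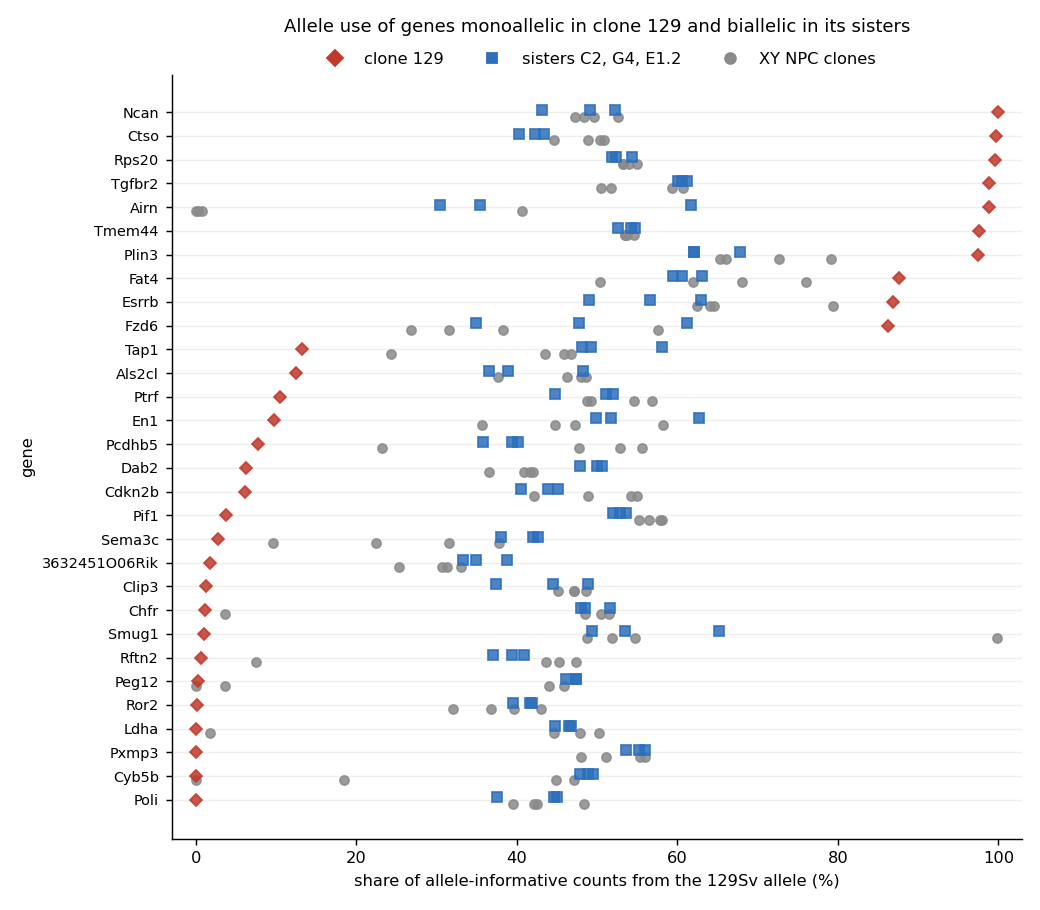
Share of allele-informative counts from the 129Sv allele in percent (x axis) for the named genes of the monoallelic class (y axis), in clone 129 (red diamonds), its 3 sisters (blue squares) and the 4 XY NPC clones with at least 20 counts (grey circles). Clone 129 lies at either edge, such as Ldha at 0.027% and Ncan at 99.98%, while the sisters stay between 30% and 70%; Airn, Peg12, Ldha, Chfr, Cyb5b, Rftn2 and Sema3c also have an XY clone at under 10%.

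The whole gene was lower in most of the class. Over the 212 genes the median log2 difference in FPKM between clone 129 and the mean of its sisters was -0.88, a ratio of 0.543, and 187 of 212 genes (88.2%) were lower. In 162 genes (76.4%) clone 129 was below every sister. Among the 9031 genes biallelic in all 4 clones the median difference was 0.07, and 23.8% were below every sister in clone 129. The allele in use in clone 129 had a median log2 CPM difference of -0.07 (CPM are counts scaled to the effective library total), and the other allele one of -4.64. Among the 105 genes with 500 counts in every clone these were 0.03 and -5.84. The low value of the other allele follows from the rule that chose the class. The allele in use went both ways: it was lower in clone 129 in 112 of the 212 genes (52.8%), and the quartiles of the difference were -0.75 and 0.36. Among the genes biallelic in all 4 clones the allele with the greater share in clone 129 was lower in 40.5%. The median FPKM ratio was 0.563 for the 93 genes read from 129Sv and 0.53 for the 119 read from Cast. In a bulk library a lower level in every cell and fewer cells with the RNA cannot be told apart.

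**Figure D3:**
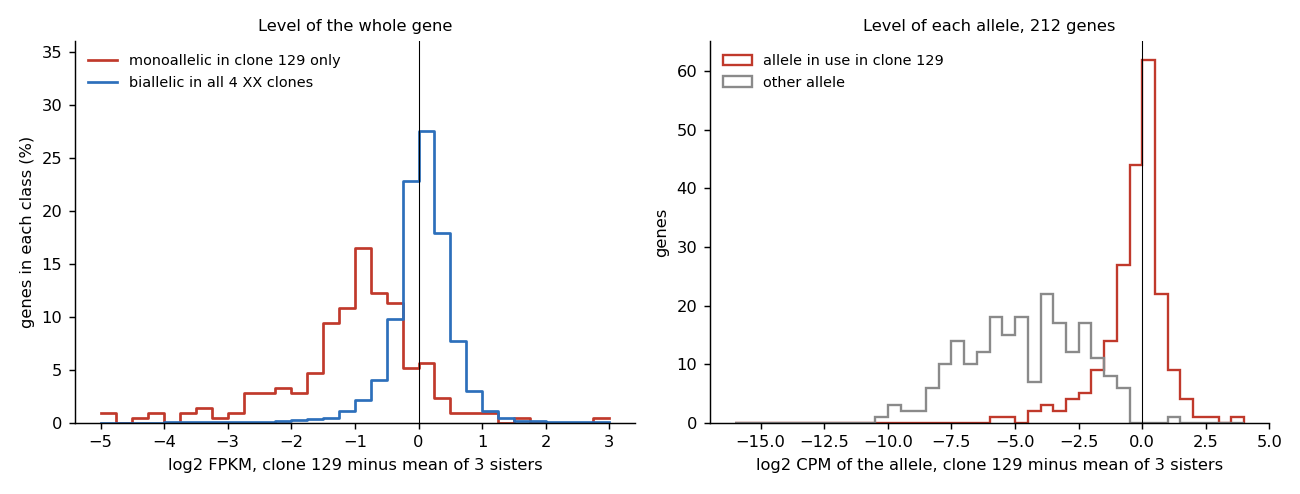
Left, share of genes in percent (y axis) by log2 FPKM of clone 129 minus the mean of its 3 sisters (x axis, bins of 0.25), for genes monoallelic in clone 129 (red) and genes biallelic in all 4 clones (blue). Right, number of the 212 genes (y axis) by the same difference in log2 CPM for the allele in use (red) and the other allele (grey), with medians of -0.07 and -4.64.

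The XY clones played no part in choosing the monoallelic class, and some of its genes were monoallelic there too. Of 202 class genes with 20 counts in every XY clone, 38 (18.8%) were monoallelic in at least 1 XY clone, against 106 of 8967 genes (1.18%) biallelic in all 4 XX clones. With at least 500 counts in all 8 clones these were 16 of 102 (15.7%), against 36 of 7435 (0.484%). Most of the class was still biallelic in each XY clone, from 79.6% in mE6 to 84.8% in mG3, and in the XX ES line 146 of 186 class genes (78.5%) were biallelic, against 93.5% of the genes biallelic in all 4 XX clones. Genes that share reads or a locus are not independent of each other, and no test was made over them.

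The ratio of 129Sv to Cast counts was also tested for each gene by the interaction of allele and group in edgeR, over clone 129, its 3 sisters and the 4 XY clones. Of 11618 autosomal genes tested, 217 (1.87%) were called. Of these, 94 (0.809%) had a higher 129Sv share in clone 129 than in the sisters and 123 (1.06%) a lower share, at a Benjamini-Hochberg adjusted p under 0.05. The class of 212 genes held 126 of these 217 calls, but class and test rest on the same counts. Ldha, Cyb5b, Chfr, Smug1, Airn and Peg12 did not pass at that threshold. Each had an XY clone in the fit with a single allele in use. The test was also run with the XX clones alone and without each XY clone, but the outcome for these genes was not examined. Of the 91 calls outside the class 39 were monoallelic in clone 129, and 29 were shifts among genes biallelic in all 4 clones. Without any 1 of the other 7 libraries 186 to 205 genes were called.

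By count, the calls were led by genes outside the class. Scrn1, a secernin, had a 129Sv share of 93.4% in clone 129, against 52.8%, 57.3% and 29.5% in C2, G4 and E1.2. Its log2 ratio of 129Sv to Cast differed by 4.04 ± 0.60 (SE, edgeR adjusted p = 0.0212). The entry Mir1932, which spans 119249819 to 119349010 on chromosome 11 (mm9) and is given here as that interval and not as the miRNA, had 76.9% in clone 129, against 46.2%, 45.4% and 46.2%, a log2 ratio difference of 1.97 ± 0.08 (edgeR adjusted p = 1.2e-05). The 6 gamma protocadherins called (Pcdhga11, Pcdhgb8, Pcdhga12, Pcdhgc3, Pcdhgc4 and Pcdhgc5) had shares of 30.9% to 31.4% in clone 129, against 49.7% to 53.4% in the sisters. Gamma protocadherins are adhesion molecules whose transcripts share their last exons, and their counts overlap almost fully, so these 6 calls are near to a single measurement. Smaller shifts were those of Lrrfip1 (44.3% in clone 129, against 50.8% to 51.6%) and Fads1, a fatty acid desaturase (40.1%, against 46.7% to 47.6%).

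Genes silent in clone 129 were read in every sister and mostly in the XY clones. Sri and Cdh20 had the highest mean FPKM in the sisters among the silent genes with 0 counts in clone 129, and both have few CpG pairs at their start. Their windows are printed for the comparison of CpG pairs given further on, with CpG pairs in capitals, 5′ to 3′ on the gene's strand. The Sri window is chr5:8045830-8046129 on the plus strand with 5 CpG pairs, and the Cdh20 window is chr1:106664277-106664576 on the plus strand with 4, both in mm9.
Sri: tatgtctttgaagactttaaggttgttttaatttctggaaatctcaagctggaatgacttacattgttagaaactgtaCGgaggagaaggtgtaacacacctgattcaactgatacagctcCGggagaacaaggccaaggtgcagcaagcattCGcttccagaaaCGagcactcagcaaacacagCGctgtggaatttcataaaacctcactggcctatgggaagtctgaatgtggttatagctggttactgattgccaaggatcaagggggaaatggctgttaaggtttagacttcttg
Cdh20: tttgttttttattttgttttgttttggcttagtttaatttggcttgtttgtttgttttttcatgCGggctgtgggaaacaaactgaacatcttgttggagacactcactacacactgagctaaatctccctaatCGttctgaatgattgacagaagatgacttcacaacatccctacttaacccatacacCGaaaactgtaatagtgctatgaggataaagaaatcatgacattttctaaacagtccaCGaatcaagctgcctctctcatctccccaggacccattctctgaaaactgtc

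Sri, which encodes the calcium-binding protein sorcin (chromosome 5, 8046080 to 8069245), had 0 counts and 0 FPKM in clone 129, against 26.5, 29.5 and 24.8 FPKM in C2, G4 and E1.2, with 25460 to 30587 counts. Against a floor of 3 counts in clone 129, Sri was at least 6177-fold lower than the sisters' mean CPM. The 4 XY clones had 23.1 to 30.5 FPKM, close to the sisters. Gpr126, an adhesion receptor coupled to G proteins, had 0 counts and 0.0129 FPKM in clone 129, against 19.3, 17.98 and 10.7 FPKM, at least 8526-fold lower by counts, and 22.2 to 34.1 FPKM in the XY clones. Cdh20, a cadherin of cell adhesion, had 0 counts and 0.0443 FPKM in clone 129, against 23.6, 16.0 and 39.9 FPKM, at least 2815-fold lower by counts. In XY clone mE6, Cdh20 was read almost wholly from Cast (129Sv share 0.221%). For these 3 genes the 8 NPC clones split into clone 129, with no count, and the other 7.

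Mt3 and S100a10 had the highest sister levels among the named far lower genes. Mt3, a metallothionein of the brain, had 0 counts and 0.338 FPKM in clone 129, against 597, 421 and 323 FPKM in the sisters and 76.5 to 239.9 FPKM in the XY clones. By counts it was at least 864-fold lower. S100a10, the partner of annexin A2, had 3 counts and 0.208 FPKM in clone 129, against 105, 143 and 84.9 FPKM. In the XY clones S100a10 was read mostly from Cast, with 129Sv shares of 0.683%, 0.0460%, 24.8% and 0.0171% in mC3, mE6, mB4 and mG3, against 35.4% to 42.6% in the sisters.

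Several of the named silent and far lower genes encode enzymes. Cbs, cystathionine beta-synthase of sulfur amino acid metabolism, had 0.0944 FPKM in clone 129, against 32.4, 18.2 and 23.0 FPKM. Cbr3, a carbonyl reductase, had 0 counts in clone 129, against 41.3, 5.18 and 8.83 FPKM, so its sisters differed from each other as well. Acot2, a mitochondrial acyl-CoA thioesterase, had 0 counts in clone 129, against 6.85, 8.21 and 9.12 FPKM. Ctsf, a lysosomal protease, had 0 counts in clone 129, against 13.7, 6.54 and 25.3 FPKM. Smyd3, a lysine methyltransferase, had 1 count and 0.0083 FPKM in clone 129, against 6.99, 8.79 and 6.89 FPKM. Pla2g7, the platelet-activating factor acetylhydrolase, had 0.0807 FPKM in clone 129, against 23.98, 17.98 and 141 FPKM, and XY clone mE6 was low as well with 0.211 FPKM. Apart from Pla2g7, these enzymes were at 6 FPKM or more in each XY clone.

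Plin2 coats lipid droplets. It had 0 counts in clone 129, against 10.8, 21.4 and 9.80 FPKM in C2, G4 and E1.2, and it was listed at 0 in XY clone mE6 too, against 17.6 to 20.2 FPKM in the other XY clones. The sisters used different alleles of Plin2, with 129Sv shares of 0%, 1.02% and 100% in C2, G4 and E1.2.

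Secreted, matrix and surface proteins were also among the silent and far lower genes. Gas6, a ligand of TAM receptor kinases, had 0.810 FPKM in clone 129, against 55.1, 72.1 and 138 FPKM. Col11a1, a fibrillar collagen, had 0.0971 FPKM in clone 129, against 10.7, 29.6 and 2.46 FPKM. Mmp16, a membrane-bound metalloproteinase, had 0.0760 FPKM in clone 129, against 5.48, 5.54 and 6.11 FPKM, and Nid1, a basement membrane protein, had 0.0386 FPKM, against 2.28, 3.30 and 2.23 FPKM. Nid1 was read almost wholly from 129Sv in mC3, mE6 and mB4 (96.2% to 99.2%). Epha7, an ephrin receptor, had 0.0325 FPKM in clone 129, against 3.91, 1.18 and 8.02 FPKM. Golim4, a Golgi membrane protein, had 0.0664 FPKM in clone 129, against 28.5, 9.79 and 23.9 FPKM. Its 98 counts in clone 129 were all from 129Sv, as were 96.8% of those in G4.

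Homeobox genes were represented in both classes. Dbx2, a homeobox gene of the neural tube, had 0.0789 FPKM in clone 129, against 5.01, 11.5 and 37.2 FPKM, and XY clone mE6 was at 0.0304 FPKM. Hoxc8 had 0.308 FPKM in clone 129, against 5.24, 17.5 and 22.2 FPKM, and Hoxc6 had 0.650 FPKM, against 6.71, 16.1 and 15.7 FPKM. Hoxa7 had 0.9497 FPKM in clone 129, against 15.7, 19.6 and 13.1 FPKM. The XY clones were listed at 0 for Hoxc8 and Hoxc6 and at 0.394 to 0.862 FPKM for Hoxa7, so for these 3 genes of body axis position clone 129 lay nearer to the XY clones than to its sisters.

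Nap1l5 and Gatm, members of the list of imprinted genes, were in the far lower class. Nap1l5, a nucleosome assembly protein, had 0 counts and 0.164 FPKM in clone 129, against 70.6, 34.7 and 48.9 FPKM, and mE6 was at 0.0963 FPKM. Gatm, an enzyme of creatine synthesis, had 0 counts and 0.0429 FPKM in clone 129, against 2.495, 2.55 and 4.17 FPKM. The sisters read Gatm with 129Sv shares of 26.7%, 81.1% and 0.148%, so they did not favour the same allele.

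FPKM and counts went apart in a few silent genes. Of the 80 genes, 61 had under 20 counts in clone 129 and 5 had at least 100: Ak3, Ildr2, Mettl5, Ankrd57 and Adcy3, of which Mettl5, Ankrd57 and Adcy3 were named after their values were seen. Ankrd57 had 62.0 CPM in clone 129, against a mean of 66.8 CPM in the sisters, and Mettl5 had 7.75 CPM, against 11.3 CPM, though both were near 0 in FPKM. Ak3, a mitochondrial adenylate kinase, had 6829 counts in clone 129 (97.6 CPM), against a mean of 288 CPM, at 0.0756 FPKM in clone 129, against 23.4 to 31.2 FPKM. It overlaps the gene 1700018L02Rik, and where the counting took no account of strand, reads of overlapping genes cannot be told apart. The remaining named genes, Ildr2, Aard, 2700089E24Rik, Dok6, Pogk and Ssbp4, had 0 to 123 counts in clone 129, against at least 247 in each sister.

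**Figure D4:**
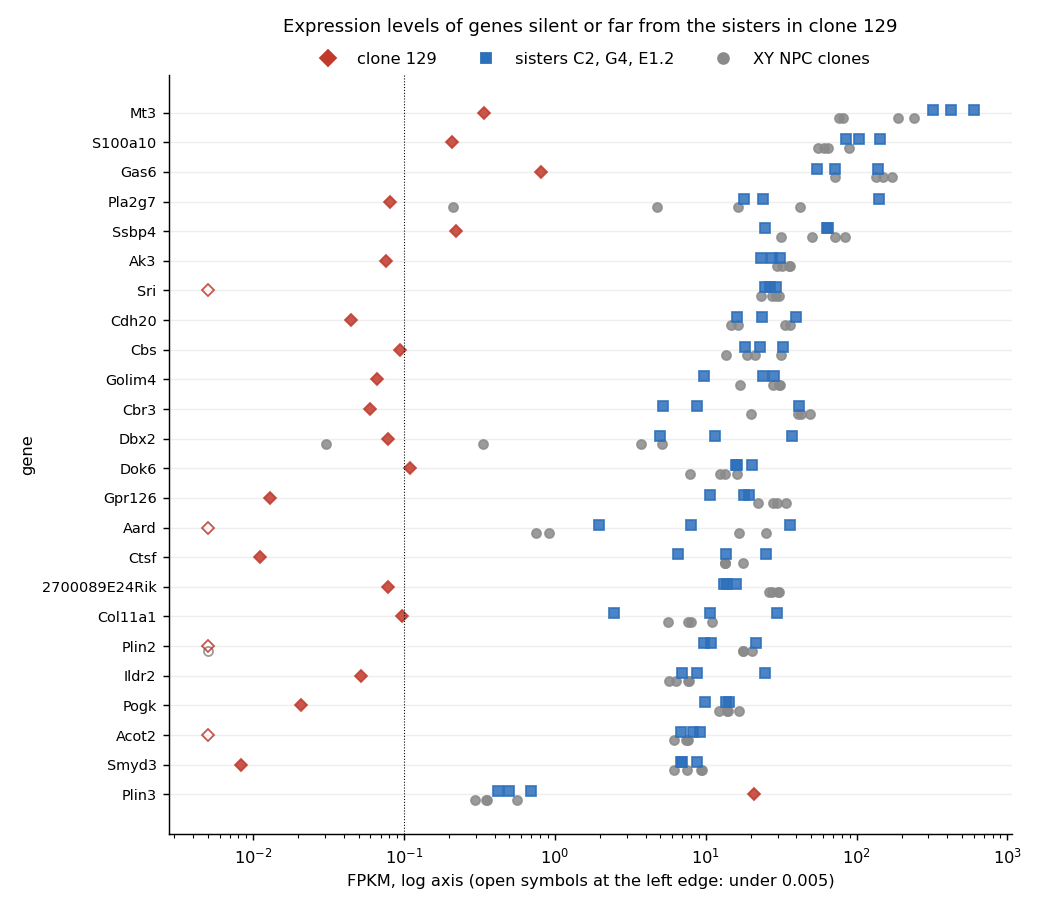
FPKM on a log axis (x axis) of the named silent and far lower genes and of Plin3 (y axis, ordered by the sisters' mean), in clone 129 (red diamonds), its 3 sisters (blue squares) and the 4 XY NPC clones (grey circles); open symbols mark values under 0.005 FPKM and the dotted line marks 0.1 FPKM. Clone 129 stands left of all its sisters except at Plin3, where its 20.8 FPKM stand far to their right.

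Allele use in the sisters did not choose the silent genes. Of 79 silent genes with 20 counts in each sister, 27 (34.2%) were biallelic in all 3 and 41 (51.9%) were monoallelic in at least 1, against 89.9% and 3.9% of 9635 other genes at 1 FPKM or more in every sister. With at least 500 counts in each sister, 25 of 50 silent genes were monoallelic in at least 1, against 2.8% of 8499 other genes. Their levels in the sisters had medians of 5.22, 4.33 and 5.33 FPKM in C2, G4 and E1.2, against 13.3 to 13.8 FPKM. In clone 129 itself the median was 0.0367 FPKM.

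Most of the 80 silent genes were expressed in the XY clones. At 1 FPKM or more in all 4 XY clones were 52 genes (65.0%), against 96.5% of the other genes. In at least 1 XY clone 8 silent genes (10.0%) were under 0.1 FPKM, against 0.298% of the other genes, with 6 of these in mE6 and 2 in mC3. In the ES lines 45 (XX) and 44 (XY) of the 80 had at least 1 FPKM.

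CpG pairs at the gene start were counted in the window of 300 bases described above, for the genes with plain names that had such a window. Silent genes had a median of 13 CpG pairs and far lower genes one of 16, against 21 among genes at 1 FPKM or more in every sister. Other genes with the same range of sister FPKM as the middle part of the silent class (3.26 to 9.49 FPKM) had 20. An observed to expected ratio of CpG over 0.6 was found in 48.0% of the silent and 54.0% of the far lower genes, against 74.2% of genes at 1 FPKM or more in every sister and 63.8% of all autosomal windows. The monoallelic class had a median of 18 CpG pairs, with 62.4% over that ratio, against 21 and 74.3% in genes biallelic in all 4 clones. Windows were found for 98.4% to 98.8% of these classes. A lower number was found in the far above class as well: its median was 13 CpG pairs, with 44.4% over that ratio, against 21 and 73.5% among genes at 1 FPKM or more in clone 129, though only 27 of its 31 plainly named genes had a window. The Ldha window, with 30 CpG pairs, was above the median of its class, and the Sri and Cdh20 windows, with 5 and 4, were below that of theirs.

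**Figure D5:**
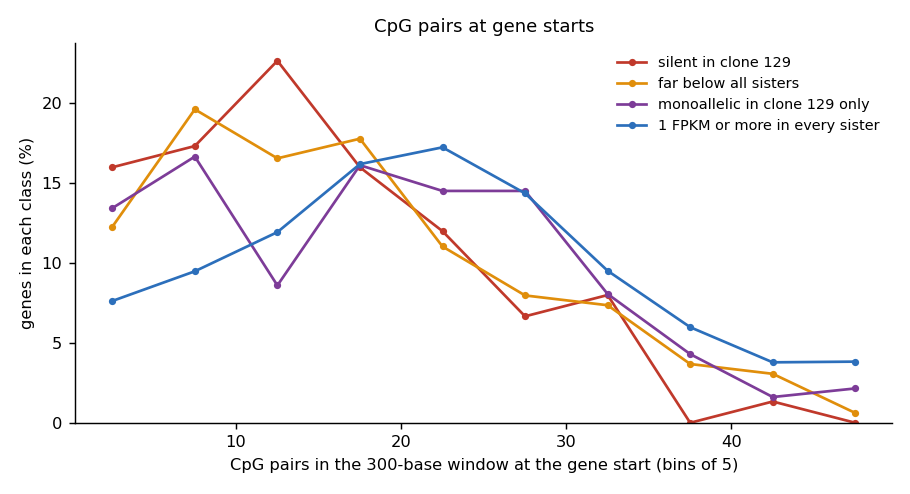
Share of genes in each class in percent (y axis) by the number of CpG pairs in the 300-base window at the gene start (x axis, bins of 5 plotted at their middle, the last bin open). Silent (red) and far lower genes (orange) peak at fewer CpG pairs than genes at 1 FPKM or more in every sister (blue), with medians of 13, 16 and 21.

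The levels were tested for each gene with edgeR's quasi-likelihood test on counts summed over both alleles, in the same 8 NPC libraries. Of 14307 autosomal genes, 158 (1.1%) fell and 13 (0.0909%) rose in clone 129 against its sisters, at a Benjamini-Hochberg adjusted p under 0.05. The median log2 change over all genes was -0.05. Of the 158, 53 had 0 counts in clone 129. The far lower class held 84 of the 158 and the monoallelic class 22, again from the same values that chose them. With the 4 XX clones alone 26 fell and 1 rose, and with DESeq2 1030 fell and 311 rose, so the number of calls depends on the tool and on the libraries in the fit. Without XY clone mE6 108 genes fell and 5 rose, and without mB4 104 fell and 3 rose.

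Of 36 named genes called, 10 kept their call in each of the 11 alternatives, with adjusted p of at most 0.0478. Pogk, a transposase-derived gene with a KRAB domain, was among them (log2 change -9.17 ± 0.37, SE, edgeR adjusted p = 0.000106). Its FPKM was 0.0207 in clone 129, against 13.7, 14.3 and 9.87 in the sisters. S100a10 and Smyd3, with the 3 counts and 1 count in clone 129 given above (edgeR adjusted p = 0.000423 and 0.000132), Cbs (-8.36 ± 0.80, adjusted p = 0.0042) and Mmp16 (-6.91 ± 0.60, adjusted p = 0.0027) also kept theirs. Sri, Gpr126, 2700089E24Rik, Dok6 and Plin3 did so as well. Mt3, Cdh20, Ak3, Acot2, Ctsf, Golim4, Ildr2, Ssbp4 and Ephb1 lost theirs with the 4 XX clones alone, with adjusted p from 0.0611 to 0.243 in edgeR. Pla2g7, Dbx2, Plin2, Aard, Cbr3 and Col11a1 did not pass (edgeR adjusted p from 0.0783 to 0.321). Gas6 passed (-5.47 ± 0.82, edgeR adjusted p = 0.0274) but lost its call without XY clone mC3, mB4 or mG3 and with the XX clones alone (up to 0.192).

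Plin3, which coats lipid droplets like Plin2, had the largest log2 change of the 13 genes that rose. The window at its start is printed for comparison with those above; it holds 9 CpG pairs, where the far above class has a median of 13 (chr17:56429885-56430184, minus strand, mm9, CpG pairs in capitals, 5′ to 3′ on the gene's strand).
Plin3: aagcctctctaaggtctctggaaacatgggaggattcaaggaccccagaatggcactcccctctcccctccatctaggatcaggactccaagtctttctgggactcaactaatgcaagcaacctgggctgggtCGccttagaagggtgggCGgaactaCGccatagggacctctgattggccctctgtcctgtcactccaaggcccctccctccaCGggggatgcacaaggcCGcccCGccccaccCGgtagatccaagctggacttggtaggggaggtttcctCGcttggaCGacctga

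Plin3 (chromosome 17, 56418385 to 56429934) had 20.8 FPKM in clone 129, against 0.7003, 0.4995 and 0.424 FPKM in C2, G4 and E1.2, and 0.295 to 0.565 FPKM in the XY clones. Its log2 change by counts was 5.28 ± 0.50 (SE, edgeR adjusted p = 0.0042, and from 1.39e-18 to 0.0448 over the alternatives, DESeq2 included). Of its 4865 counts in clone 129, 97.5% came from 129Sv (exact 95% interval 97.0 to 97.9), against 62.0%, 62.0% and 67.9% of 158 to 237 counts in the sisters. Both ES lines read Plin3 from both alleles at 95.1 FPKM (XX) and 82.2 FPKM (XY). It was the only gene of the far above class that rose by this test, and the only gene in both that class and the monoallelic class.

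The other 12 genes that rose were named after their values were seen, and all changed less. Lmo7, a protein of cell junctions and actin, had 9.52 FPKM in clone 129, against 1.52, 1.48 and 2.59 FPKM (log2 change 2.40 ± 0.35, edgeR adjusted p = 0.024). Zfp454, a zinc finger gene read mostly from Cast in all 4 clones, had 3.73 FPKM, against 0.762, 0.949 and 1.22 FPKM (2.03 ± 0.21, edgeR adjusted p = 0.00591). Insig1, a regulator of sterol synthesis, had 145 FPKM in clone 129, against 47.2, 69.2 and 70.8 FPKM (1.28 ± 0.18, edgeR adjusted p = 0.0239). The remaining 9, Ppfibp1, Erf, Tpm1, Mesdc1, Sun2, Bin1, Kif20a, Asap2 and Rnf157, rose by 0.69 to 1.23 on the log2 scale. Of these 12, Ppfibp1 and Zfp454 lost their call with the XX clones alone only, and the other 10 also when a single sister or XY clone was left out, with edgeR adjusted p of up to 0.348.

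Among genes far above the sisters that did not pass the test, Peg13, an imprinted noncoding RNA, was also expressed in clone 129 alone among the XX clones. It had 4.26 FPKM and 1141 counts in clone 129, against 0.0309, 0.0177 and 0.0154 FPKM and 5, 11 and 16 counts in the sisters. In clone 129 98.6% of its counts came from 129Sv, whereas in the XY clones mC3, mE6 and mB4, at 5.71 to 7.04 FPKM, 0.0615% to 0.155% did, and mG3 was at 0.0101 FPKM. Clone 129 and 3 XY clones thus read Peg13 from opposite alleles. Bmp5, a bone morphogenetic protein, had 5.47 FPKM in clone 129, against 0.107, 0.0457 and 1.27 FPKM. Sox1, a neural progenitor transcription factor, had 2.59 FPKM, against 0.360, 0.311 and 0.00308 FPKM, but the XY clones ran from 0.316 to 7.65 FPKM. Otx1, a homeobox gene of the forebrain, had 1.23 FPKM, against 0.0103, 0.0403 and 0.213 FPKM. FPKM and counts went apart in some far above genes too, here named after their values were seen. Pcdha6 had 1.94 FPKM, against a mean of 0.111 FPKM in the sisters, but 101.5 CPM, against 129.6 CPM. Pcdha7 was also lower in CPM, with 98.1, against 129.4. Lrrn4 had 8.41 FPKM, against 0.966 FPKM, but only 186 CPM, against 129 CPM. With CPM in place of FPKM the far above class held 31 genes.

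Besides Peg13, the genes with a plain name expressed in clone 129 alone (5 of 10064 in all) were Glt1d1 with 2.64 FPKM, against 0.0797, 0.0574 and 0.0253 FPKM, Olfr1349 with 1.18 FPKM, against 0, 0.0516 and 0.0911 FPKM, and Cst12 with 1.14 FPKM, against 0.0367, 0.0705 and 0.0316 FPKM. Cst12 rests on 18 counts in clone 129. None of these named genes passed in edgeR (adjusted p from 0.146 to 0.419), while 4 of the 5 genes of the class had an unadjusted p under 0.05 and DESeq2 called 1. Without E1.2 the class held 10 genes.

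In the reverse class, where clone 129 used both alleles and every sister 1, Zfp37, a zinc finger gene, had a 129Sv share of 46.1% in clone 129, against 99.9%, 3.22% and 99.6% in C2, G4 and E1.2. The sisters thus did not share an allele. Ovol1, a zinc finger gene of epithelia, had 64.9% in clone 129, against 0.848%, 0.893% and 5.88%. Col6a2, a collagen, had 30.4% of 56 counts in clone 129, against 4.60%, 3.45% and 9.80%. Dsc2, a desmosomal cadherin, had 40.0% of only 20 counts in clone 129, against 100% in each sister.

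Lists of genes by function were read beside the fraction of all genes called, 1.1% lower and 0.0909% higher. No member of any of the 20 lists (496 genes tested) rose by edgeR's test at the adjusted threshold, while 45 were higher and 78 lower at an unadjusted p under 0.05, and DESeq2 called 17 higher and 59 lower. Lower were 2 of 27 cadherins and protocadherins tested (Cdh11 and Cdh20; median log2 change of the list -0.58), 2 of 60 matrix genes (Nid1 and Mmp16; -0.65), 1 of 57 axon guidance genes (Ephb1; -0.43), 1 of 38 regional identity genes (Hoxa3; -1.10) and 1 of 25 genes of antigen presentation and interferon response (Psmb10; -0.86). Cdh11 had 0.611 FPKM in clone 129, against 10.8, 11.1 and 7.96 FPKM (log2 change -4.72 ± 0.75, edgeR adjusted p = 0.036). Ephb1, an ephrin receptor, had 0.109 FPKM in clone 129, against 5.26, 5.60 and 4.70 FPKM (-5.50 ± 0.66, edgeR adjusted p = 0.0114). Psmb10, an immunoproteasome subunit, had 2.90 FPKM in clone 129, against 13.5, 10.7 and 14.8 FPKM (-2.42 ± 0.39, edgeR adjusted p = 0.0366). Hoxa3 was lower by counts, with 460 in clone 129, against 2657, 2883 and 2364, but higher in FPKM, with 11.2, against 5.55, 4.90 and 7.78, so its direction is uncertain; its interval overlaps other Hoxa genes. Besides the fit with the XX clones alone, Cdh11 lost its call without C2, G4, mE6 or mB4 (adjusted p in edgeR of up to 0.0854) and Nid1 without mB4 (up to 0.0962). Hoxa3 lost it without C2, G4, mC3, mE6 or mB4 (up to 0.207) and Psmb10 without any 1 of the sisters and without mC3, mB4 or mG3 (up to 0.242).

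No member of the neural progenitor list (38 tested, median log2 change -0.35) passed in either direction, and likewise none of the lists of astrocytes (9; -1.20), oligodendrocytes (8; 0.06), neurons (11; -0.57), fibroblasts (14; -2.40), imprinted genes (56; -0.15), the cell cycle (36; 0.49), Wnt (40; -0.32) and TGF-beta signalling (37; -0.13), glycolysis (18; -0.21), DNA methylation and Polycomb (22; 0.12), pluripotency (6; 0.55), endothelium (5; 0.16), endoderm (4; -3.60) and microglia (1 tested). At an unadjusted p under 0.05 in edgeR, 36 of the 300 genes tested in these 15 lists were higher and 37 lower, and DESeq2 called 12 higher and 25 lower. Of the genes at 1 FPKM or more in every sister, 1.81% were in the far lower class. Among the list members at that level, the class held 5 of 36 axon guidance genes (Sema3c, Plxna4, Epha4, Epha7 and Ephb1), 4 of 25 regional identity genes (Dbx2, Hoxa7, Hoxc6 and Hoxc8) and 3 of 20 cadherins and protocadherins (Cdh11, Cdh20 and Pcdh17). It also held 3 of 33 matrix genes (Nid1, Col11a1 and Mmp16), 2 of 31 imprinted genes (Nap1l5 and Gatm) and 1 of 16 glycolytic genes (Eno2). It held none of the 34 neural progenitor, 34 cell cycle, 30 Wnt, 25 TGF-beta, 21 DNA methylation and Polycomb and 13 antigen presentation and interferon genes, and none of the at most 7 genes at that level in each other list. Epha4 had 1.06 FPKM in clone 129, against 5.94, 6.95 and 14.0 FPKM. Plxna4, a semaphorin receptor, had 0.425 FPKM in clone 129, against 3.15, 4.92 and 2.03 FPKM. Pcdh17 had 0.222 FPKM in clone 129, against 7.51, 2.94 and 1.998 FPKM, and Eno2, a glycolytic enolase of neurons, had 0.512 FPKM, against 3.12, 2.90 and 6.80 FPKM.

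The affected genes were spread over the genome. The median 129Sv share of a chromosome lay between 49.7% and 50.3% in clone 129, and windows of 10 Mb with at least 10 genes had medians from 40.6% to 56.4%. Of 239 such windows, 128 held at least 1 gene of the monoallelic class, and none more than 6 (6 of 114 genes, 5.26%). Some windows with fewer genes had higher shares, against 1.82% of all genes. These were 2 of 11 (18.2%, chromosome 5, 150 to 160 Mb) and 3 of 18 (16.7%, chromosome 7, 60 to 70 Mb). At 30 to 40 Mb, chromosome 19 had 5 of 41 (12.2%) and chromosome 13 had 4 of 33 (12.1%). Local concentration was not tested. Chromosome 7 had the highest share of monoallelic genes (25 of 903, 2.77%) and chromosome 6 that of far lower genes (22 of 497, 4.43%). Of 12728 plainly named genes 337 were in the monoallelic or far lower class, and 29 of them stood in 14 runs of neighbours. The longest run held 3 genes with an overlap among them (Prkg1, Cstf2t and Asah2). Among the 9 runs without overlap were Cdh20 and Rnf152, Acot2 and Acot1, Hoxa6 and Hoxa7, Hoxc8 and Hoxc6, and Lyn and Rps20.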

How the data were processed

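RNA-seq values of 1 library per clone or line were used. The authors deposited, for each gene and library, a count of reads informative for an allele, the share of them from 129Sv and an FPKM value. TopHat 1.4.0, Cufflinks 1.3.0, SAMtools and build mm9 are named, per the submitters' processing notes; whether counting used strand is not given in the sources used here. Total counts ran from 66611144 to 119266777 in the XX NPC clones. The members and gene lists were chosen with earlier results of these data known.

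Classes used autosomal genes, the deposited counts, shares and FPKM, with a pseudocount of 0.1 FPKM for folds. Levels and allele ratios were tested with edgeR 4.0.16 (quasi-likelihood, TMM, R 4.3.3) over 8 NPC libraries in 3 groups with 5 residual degrees of freedom, p-values adjusted by Benjamini-Hochberg at 0.05. The allele model kept each library as a block. Each SE was derived from the log2 change and the F statistic of its test, so it is approximate, above all at few or 0 counts. Both tests were also run on simulated data with the same spread set for every gene, which real clones need not have. That run does not measure the error of the calls given here. DESeq2 1.42.0 was an alternative, beside other scalings, filters, limits and left-out libraries. Intervals are exact (Clopper-Pearson, 95%), and floors are 3 counts; both cover counting error only. Windows at gene starts were read from NCBIM37 with the GENCODE vM1 annotation. Named genes were those with the highest counts (monoallelic class and allele calls), the highest sister FPKM (silent class) or the largest fold among genes called (far above and below), plus list members, leaving out joined or unnamed entries. Python 3.11.15 with pandas 2.3.3, scipy 1.17.1 and matplotlib 3.10.9 made the summaries and figures. Repeat libraries of C2 and mC3 were not analysed here.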

Additional observations from a re-analysis of the deposited data

Results flagged for a closer look

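Among 33 groups of 4 libraries examined, 7 had a library far from the others. The rule flags about 1 in 20 groups of independent, normally distributed values. These groups were class counts and values of genes chosen for printing, so that rate need not hold and no excess is read from it. Of the XX clones, clone 129 stood apart with 80 silent genes, 177 far lower genes and 4 genes biallelic there only, as described above. The 129Sv share of Ldha was 1.797% in XY clone mC3. Airn had a 129Sv share of 40.62% in XY clone mG3, of 64 counts. Plin2 was listed at 0 FPKM in XY clone mE6. S100a10 had a 129Sv share of 24.75% in XY clone mB4.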

How the results depend on the processing

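No paired analysis was possible because the labels give the clones no numbers that pair them across groups. Of 79 alternatives for the classes and their level, 44 left the value within its limits. The 171 level calls became 27 with the XX clones alone and 1341 with DESeq2 (311 higher, 1030 lower, all 171 among them), and 107 to 230 when 1 library was left out; 2291 genes had an unadjusted p under 0.05. The 212 monoallelic genes became 105 with 500 counts, 87 with a biallelic limit of 60%, 386 with 2 of 3 sisters required and 128 with 1 FPKM in all 4 clones, and 267 to 273 without 1 sister. The reverse class of 4 became 2, 2 and 1 with 50, 100 and 500 counts, 2 with a monoallelic limit of 95%, 2 with a biallelic limit of 60%, 57 with 2 of 3 sisters, 1 with 1 FPKM in all 4 clones, and 18 to 27 without 1 sister. The 80 silent genes became 36 with 0 counts required, 49 under 0.05 FPKM, and 134 or 22 with a sister floor of 0.5 or 5 FPKM, and 95 to 126 without 1 sister (126 without G4). The 36 far above genes became 7 with a pseudocount of 1 FPKM, 135 at 2-fold, 10 at 8-fold and 14 with a floor of 5 FPKM, and 42 to 61 without 1 sister (56 without C2, 61 without E1.2). The 177 far below genes became 85 with a pseudocount of 1, 393 at 2-fold, 80 with a floor of 5 FPKM and 314 on CPM, and 241 to 255 without 1 sister. The 5 genes expressed in clone 129 alone became 5 to 10 without 1 sister, an alternative chosen after seeing the data. The median level difference of -0.88 became -0.96 on CPM and -0.67 with a pseudocount of 1. The cause was not tested for any of these. Of 396 pairs of a named gene and an alternative, 301 kept the call, 95 lost it and 0 reversed. Clone 129 is the shallowest XX NPC library and has no repeat, so its own error is unknown.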
